A study of Mus musculus with 20 samples.

Results

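The transcripts of 10 genes of the stress response were followed in the mouse uterus shortly before embryo attachment. They are the 3 GADD45 genes (Gadd45a, Gadd45b and Gadd45g), the polo-like kinases Plk2 and Plk3, the p38 pathway kinases Map2k3, Map2k6 and Mapk13, and the phosphatases Dusp4 and Dusp6. The genes were picked by their symbols from the 45777 genes of the deposited table, with their TPM values across the groups already known, so that their differences between groups are given here as a description, with no p-value of their own. Where the fit across all genes called some of them, their number is set beside the share of all genes called and supports nothing. All 10 were above 0 TPM in all 20 libraries and were among the 18706 genes that met this filter.

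RNA of 1 uterine horn per mouse was sequenced at 18:00 on day 3.5 of pregnancy, with 5 mice in each of 4 groups. All were wild-type B6D2F1 females, 8 to 12 weeks old, and the control mice received no treatment. The IF mice received a low dose of RU486, an antagonist of the progesterone and glucocorticoid receptors, under the skin on the morning of day 3.5. The PBMC mice received the same RU486 injection and, on day 1.5, peripheral blood mononuclear cells of other mice in the uterine cavity, and for the PBMC-hCG mice these cells had been cultured with human chorionic gonadotropin. Mice given RU486 and culture medium without cells were not analysed here, so an effect of the cells cannot be told apart from one of the injection. The whole horn was extracted, so the level of a gene is that of epithelium, stroma, muscle and immune cells together, and fewer cells of a type cannot be told apart from less RNA per cell.

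GADD45 proteins are small, mostly nuclear proteins without enzyme activity of their own that are induced by DNA damage, hormones and other stress. They bind and activate the kinase MAP3K4, which stands at the head of the p38 and JNK cascades, and they also bind PCNA and CDK1 and take part in DNA demethylation. In the p38 cascade, MAP2K3 and MAP2K6 phosphorylate the p38 kinases, of which MAPK13 is the delta form. DUSP4 and DUSP6 remove the phosphates again, DUSP6 in the cytoplasm and mainly from ERK, and both are transcribed in answer to ERK activity. PLK2 and PLK3 are stress-inducible relatives of the mitotic kinase PLK1, and in the uterus MAP kinase signaling is known for its part in the decidualization of the stroma.

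Promoter sequences of 250 bases before and 50 bases after the start site are shown for the 4 genes on whose levels or motifs the description turns, from RefSeq on GRCm38.p6. Of the 10 genes, 9 had an entry, and Dusp4 had none. The capitals mark a CRE (TGACGTCA) in Plk2, an AP-1 motif (TGANTCA) in Map2k6 and a steroid receptor motif (ACANNNTGT) in Dusp6. In Gadd45g none of the motifs searched was found.
Gadd45g, chr13:51846425-51846724, plus strand: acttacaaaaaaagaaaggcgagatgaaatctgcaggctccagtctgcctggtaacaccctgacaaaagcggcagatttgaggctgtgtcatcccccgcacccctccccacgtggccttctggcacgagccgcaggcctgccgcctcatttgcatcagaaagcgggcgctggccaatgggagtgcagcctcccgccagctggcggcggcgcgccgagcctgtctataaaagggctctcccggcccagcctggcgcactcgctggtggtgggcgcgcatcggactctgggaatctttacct
Plk2, chr13:110394794-110395093, plus strand: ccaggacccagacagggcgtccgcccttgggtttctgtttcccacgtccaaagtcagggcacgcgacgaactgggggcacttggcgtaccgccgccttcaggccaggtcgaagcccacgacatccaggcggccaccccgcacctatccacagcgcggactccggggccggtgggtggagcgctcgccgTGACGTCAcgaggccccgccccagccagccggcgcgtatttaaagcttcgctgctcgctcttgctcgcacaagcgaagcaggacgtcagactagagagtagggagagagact
Map2k6, chr11:110398852-110399151, plus strand: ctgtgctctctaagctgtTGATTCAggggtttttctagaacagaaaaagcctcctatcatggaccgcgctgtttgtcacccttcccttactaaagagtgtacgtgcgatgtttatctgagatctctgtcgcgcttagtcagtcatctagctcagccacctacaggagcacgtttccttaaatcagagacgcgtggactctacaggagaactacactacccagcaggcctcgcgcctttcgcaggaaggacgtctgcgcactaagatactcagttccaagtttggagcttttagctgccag
Dusp6, chr10:99262981-99263280, plus strand: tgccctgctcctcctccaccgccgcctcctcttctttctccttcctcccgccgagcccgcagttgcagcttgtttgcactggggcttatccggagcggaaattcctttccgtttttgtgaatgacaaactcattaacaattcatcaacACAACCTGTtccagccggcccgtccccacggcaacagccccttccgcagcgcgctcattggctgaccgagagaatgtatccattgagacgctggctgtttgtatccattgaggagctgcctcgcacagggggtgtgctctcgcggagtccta

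The motifs were searched on both strands. The CRE of Plk2 began 62 bases before the start site, and a CRE was present in 1.8% of the 32544 mouse promoters of the same length. The AP-1 motif of Map2k6 began 232 bases before the first of its 3 listed start sites and was present in 7.79% of all promoters. The steroid receptor motif of Dusp6, which receptors for progesterone and for glucocorticoids share, began 102 bases before the start and was present in 6.83%. Gadd45a, on the minus strand of chromosome 6, held a p53 decamer that began 40 bases before the start, where 8.36% of promoters held one. The full estrogen response element (GGTCANNNTGACC) was present in 0.0707% of promoters and in none of the 9. A match of letters shows neither binding nor a cause.

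Gadd45g was also the target of a PCR assay of the study. Its primers are shown because they mark the part of the transcript that such an assay reads.
Forward: ccaggatacagttccggaaagc
Reverse: cacattgtcagggtccacattcag
On the GENCODE M21 transcript of 1071 bases and 4 exons, the forward primer of 22 bases lay at bases 126 to 147 in exon 1 (chr13:51846803-51846824). The reverse primer of 24 bases read the opposite strand of bases 250 to 273, of which 8 lay at the end of exon 2 and 16 at the start of exon 3. Both lay inside the coding sequence at bases 103 to 579, and the product spanned 148 bases and 2 exon junctions.

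The largest differences between groups were those of Gadd45g and Plk2. Both lay far above the control level in every IF mouse and were lower again in the PBMC-hCG group. Plk3, Map2k3 and Dusp6 also had their highest mean in the IF group, with smaller differences and with the PBMC-hCG mean under that of the control group, and Map2k6 had its lowest mean in the IF group. Gadd45a stood at like levels in the 3 RU486 groups, all above the control group, and Mapk13 varied little. In the tests across all genes, 6 of the 10 genes had an adjusted p-value under 0.05 (limma on log2(TPM + 0.1), Benjamini-Hochberg over 18706 genes) between the IF and control groups, where 21.9% of all tested genes did. Since these values chose the genes, nothing is read from such counts.

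**Figure D1:**
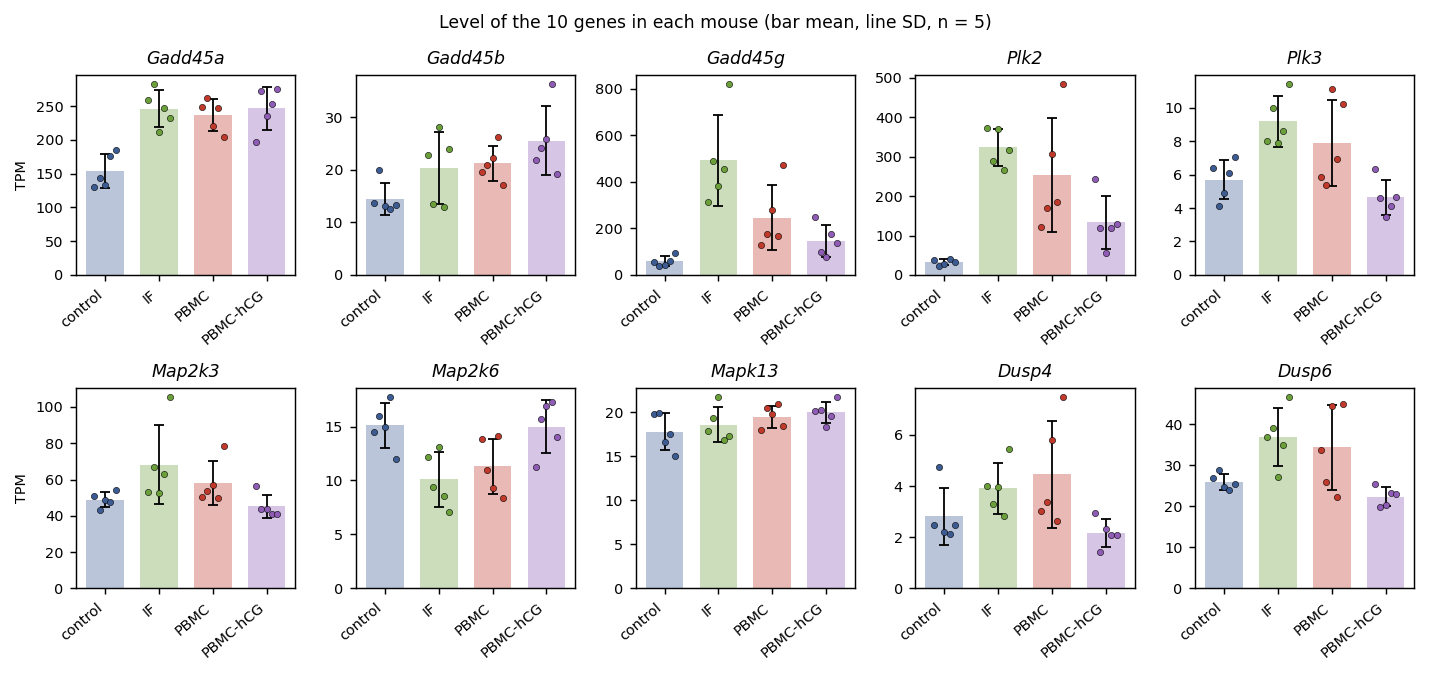
Level of each gene in TPM (vertical axes start at 0) in the control group and the 3 RU486 groups (IF, PBMC, PBMC-hCG); points are the 5 mice of a group in the order of their labels, bars the mean and lines the SD. Gadd45g and Plk2 averaged 59.5 and 32.3 TPM in control mice against 494 and 323 TPM in IF mice, and Map2k6 was lowest in the IF group at 10.1 TPM.

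Gadd45g (chromosome 13, 51846675 to 51848475, GRCm38) encodes the GADD45 protein best known from cytokine and differentiation signals. The control mice had 57.4, 39.9, 44.7, 62.2 and 93.4 TPM, and the IF mice 314, 491, 384, 458 and 821 TPM. The PBMC mice had 129.5, 178, 281, 169 and 473 TPM, and the PBMC-hCG mice 247, 97.4, 76.0, 176 and 138 TPM. Every IF mouse lay above every control mouse and above every PBMC-hCG mouse, while the PBMC group reached into both of its neighbours in the order. On the log2 scale the IF group exceeded the control group by 3.04 (SE 0.36, 95% interval 2.29 to 3.78, n = 5), an 8.2-fold difference. The PBMC-hCG group lay 3.46-fold under the IF group (log2 difference -1.79, SE 0.36) and 2.37-fold over the control group (1.24, SE 0.36). The PBMC group lay between them, at a log2 difference of -1.08 (SE 0.36) from the IF group, and its difference from the PBMC-hCG group had an interval from -1.46 to 0.04.

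Gadd45a (chromosome 6, 67035096 to 67037407, minus strand), the classical DNA damage and p53-inducible member, followed another course. Its control values were 131, 143, 133, 176 and 186 TPM, and its IF values 259, 283, 211, 248 and 232 TPM. The PBMC mice had 249, 262, 221, 247 and 205 TPM, and the PBMC-hCG mice 197, 272, 236, 253.5 and 276 TPM. All 15 RU486-treated mice lay above all 5 control mice, and the 3 treated groups overlapped. The IF group exceeded the control group by 0.69 (SE 0.11) on the log2 scale, and the PBMC-hCG group differed from the IF group by -0.00 with an interval from -0.24 to 0.23. Part of Gadd45a, 809 bases, is also covered by the non-coding gene E230016M11Rik, which averaged 1.6 TPM. The kit was stranded, but whether strand was used when abundances were estimated is not given in the sources used here.

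Gadd45b (chromosome 10, 80930091 to 80932204), the member known from TGF-beta and inflammatory signals, was the least abundant of the family. It ranged from 12.5 to 19.9 TPM in the control mice, 12.9 to 28.2 in the IF mice, 17.1 to 26.2 in the PBMC mice and 19.2 to 36.3 in the PBMC-hCG mice. Neighbouring groups overlapped throughout. The group means followed that order from 14.5 to 25.5 TPM, and the largest log2 difference, PBMC-hCG minus control, was 0.79 (SE 0.21).

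The make-up of the family therefore differed between groups. Levels in TPM are per length and can be compared between genes. Of the summed GADD45 level, Gadd45a made up 67.7% ± 3.33 (SD, n = 5) in the control group and 33.9% ± 7.86 in the IF group. Gadd45g made up 25.7% ± 4.70 in the control group, 63.3% ± 8.39 in the IF group, 46.2% ± 14.5 in the PBMC group and 34% ± 12.2 in the PBMC-hCG group. Gadd45g was thus the more abundant of the pair in every IF mouse, since its lowest share there was 52.8%, and the less abundant in every control mouse, where its highest share was 31.9%. The 3 genes together reached 228 ± 43.0 TPM without treatment and 760.5 ± 193 TPM after RU486 alone.

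Plk2 (chromosome 13, 110395044 to 110400844) encodes a polo-like kinase that is induced by serum, by p53 and in active neurons and acts on centriole duplication. The control mice had 38.9, 22.8, 26.9, 41.2 and 31.7 TPM, and the IF mice 373, 289.5, 370.2, 266 and 318 TPM. The PBMC mice had 122, 170.2, 306, 185 and 484 TPM, and the PBMC-hCG mice 243.5, 120.1, 57.0, 118 and 129.5 TPM. No treated mouse of any group reached down to the control range, and all PBMC-hCG mice lay under all IF mice. The PBMC mice spread from below the IF range to above it. The IF group exceeded the control group 10.1-fold (log2 difference 3.34, SE 0.34, 95% interval 2.63 to 4.05). The PBMC-hCG group differed from the IF group by -1.41 (SE 0.34) and from the control group by 1.93 (SE 0.34). Of the difference in mean TPM between the IF and control groups, 76% remained in the PBMC group and 34.8% in the PBMC-hCG group.

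Plk3 (chromosome 4, 117128655 to 117133963, minus strand), a kinase of the DNA damage and hypoxia responses, was far less abundant. Its control values were 6.37, 4.09, 4.91, 6.07 and 7.06 TPM, and its IF values 7.98, 9.99, 7.89, 8.62 and 11.4 TPM. The PBMC mice had 5.86, 5.4, 11.1, 6.91 and 10.2 TPM, and the PBMC-hCG mice 6.32, 4.60, 3.49, 4.10 and 4.67 TPM. The IF mice lay above all control and all PBMC-hCG mice, and the last 2 groups overlapped. The IF group exceeded the control group by 0.69 (SE 0.21) on the log2 scale, and the PBMC-hCG group lay 0.98 below the IF group (log2 difference -0.98, SE 0.21). PBMC-hCG and control differed by -0.29, with an interval from -0.72 to 0.14.

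Of the upstream kinases of p38, Map2k3 had its highest mean and Map2k6 its lowest mean in the IF group. Map2k3 (chromosome 11, 60932054 to 60952811) measured 50.9, 43.3, 48.6, 47.7 and 54.1 TPM in the control mice and 53, 66.9, 52.6, 63.0 and 105 TPM in the IF mice. In the PBMC mice it measured 50.1, 53.8, 57.1, 49.6 and 78.7 TPM, and in the PBMC-hCG mice 56.3, 44.0, 43.7, 41.2 and 41.0 TPM. All groups overlapped with their neighbours, and in each treated group 1 mouse stood apart above the others. The log2 difference was 0.43 (SE 0.16) between the IF and control groups and -0.55 (SE 0.16) between the PBMC-hCG and IF groups. The non-coding gene Map2k3os, which lies 186 bases before Map2k3, averaged 2.75 TPM and differed by -0.17 (SE 0.18) between the IF and control groups.

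Map2k6 (chromosome 11, 110399102 to 110525522) measured 14.5, 16.0, 15.0, 17.7 and 12.0 TPM in the control mice and 12.2, 9.43, 13.1, 8.57 and 7.05 TPM in the IF mice. It measured 13.8, 11, 9.30, 14.1 and 8.41 TPM in the PBMC mice and 11.2, 15.7, 16.9, 17.3 and 14.0 TPM in the PBMC-hCG mice. The IF range lay lowest but overlapped both the control and the PBMC-hCG range. The IF group was lower than the control group by 0.60 on the log2 scale (difference -0.60, SE 0.18), and the PBMC-hCG group was higher than the IF group by 0.59 (SE 0.18). Between the PBMC-hCG and control groups the difference was -0.01, with an interval from -0.38 to 0.36. The level of Map2k3 over that of Map2k6 was 3.33 ± 0.753 (SD, n = 5) in the control group, 7.55 ± 4.41 in the IF group, 5.51 ± 2.40 in the PBMC group and 3.15 ± 1.07 in the PBMC-hCG group. A single IF mouse, replicate 5, had the highest ratio, 14.9.

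Mapk13 (chromosome 17, 28769286 to 28778704), the p38 delta kinase, lay between 15.0 and 21.7 TPM over the 20 mice. Its group means lay between 17.8 TPM (control) and 20 TPM (PBMC-hCG), and their ratio, 1.12, was the smallest of the 10 genes. The log2 difference was 0.07 between the IF and control groups (SE 0.09, interval -0.11 to 0.24) and 0.11 between the PBMC-hCG and IF groups (interval -0.07 to 0.28). Its neighbour Mapk14, the p38 alpha kinase, averaged 53.2 TPM and differed by -0.05 (SE 0.05) and 0.08 (SE 0.05) in these comparisons.

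Of the phosphatases, Dusp6 (chromosome 10, 99263231 to 99267489) was the more abundant. The control mice had 26.9, 28.9, 24.7, 24 and 25.5 TPM, and the IF mice 36.8, 39.1, 27.0, 34.8 and 46.5 TPM. The PBMC mice had 33.7, 26.0, 44.5, 22.3 and 44.9 TPM, and the PBMC-hCG mice 25.4, 19.8, 20.2, 23.3 and 22.9 TPM. All PBMC-hCG mice lay under all IF mice, whereas 1 IF mouse lay within the control range. The log2 difference was 0.48 (SE 0.17) between the IF and control groups and -0.71 (SE 0.17) between the PBMC-hCG and IF groups. Dusp4 (chromosome 8, 34807610 to 34819894), a nuclear phosphatase of ERK, JNK and p38, was the least abundant of the 10 genes. It ranged from 2.13 to 4.76 TPM in the control mice, 2.84 to 5.45 in the IF mice, 2.63 to 7.47 in the PBMC mice and 1.42 to 2.96 in the PBMC-hCG mice. Its highest control value, 4.76 TPM in replicate 2, lay apart from the other 4, of which the highest was 2.48 TPM. The PBMC-hCG and IF groups differed by -0.82 (SE 0.28) and overlapped.

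**Figure D2:**
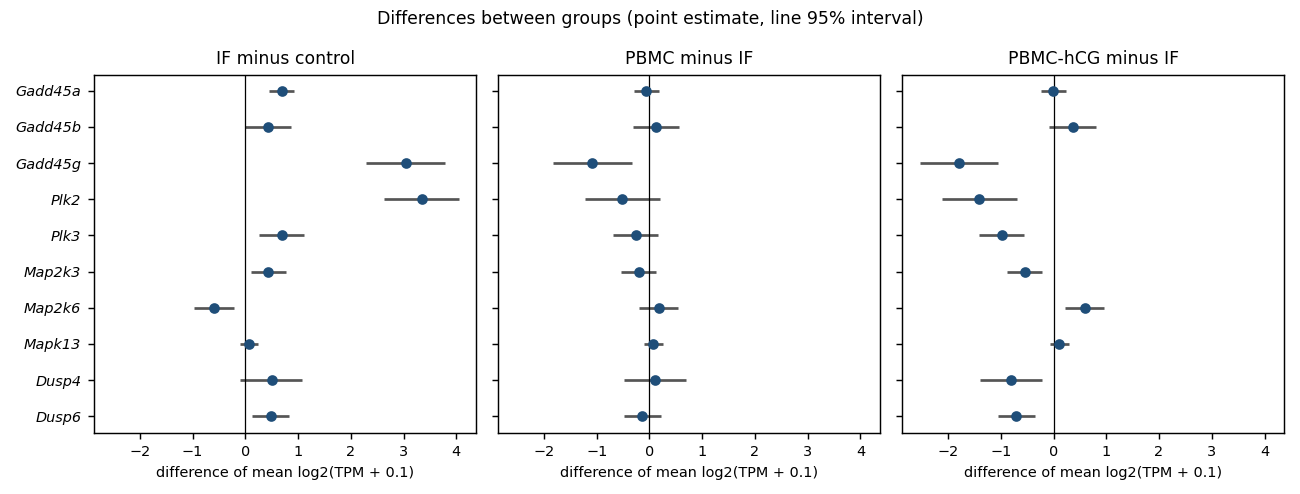
Differences between group means of log2(TPM + 0.1) for the 10 genes in 3 comparisons; points are the estimates, lines the 95% intervals of the fit over all 20 libraries, and the vertical line marks no difference. Gadd45g and Plk2 lie near 3 in the IF minus control comparison (3.04 and 3.34) and below 0 in the PBMC-hCG minus IF comparison (-1.79 and -1.41), and Map2k6 lies on the opposite side in both.

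The counts by comparison were as follows, and comparisons that share the control or the IF libraries are not independent of each other. Between the IF and control groups, Gadd45a, Gadd45g, Plk2, Plk3 and Dusp6 were called higher and Map2k6 lower by limma, and for 4 genes the groups did not overlap, which held for 12.8% of all tested genes. The call of Dusp6 held in 2 of the 10 fits that left out 1 mouse, that of Map2k6 in 7 and that of Plk3 in 8. Those of Gadd45a, Gadd45g and Plk2 held in all 10. Without IF replicate 5, 3 of the 10 genes were called, beside 3323 of all tested genes, which numbered 4104 with that mouse. Between the PBMC-hCG and IF groups, Gadd45g, Plk2, Plk3, Map2k3 and Dusp6 were called lower and Map2k6 higher, beside 13.6% of all genes, and 4 genes did not overlap, beside 7.24%. This count fell to 0 when IF replicate 2, 4 or 5 or PBMC-hCG replicate 2, 3, 4 or 5 was left out. Over all tested genes the calls fell likewise, from 2544 to between 0 and 34 in those fits. Over all 10 fits that left out 1 mouse of either group, the difference of Gadd45g lay between -2.01 and -1.59 and that of Plk2 between -1.66 and -1.14.

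Between the PBMC and IF groups limma called none of the 10 genes, 1 had a raw p-value under 0.05, and none was without overlap. Of all 18706 tested genes 0% were called, 1271 had a raw p-value under 0.05 and 1.01% did not overlap. When PBMC-hCG was compared with PBMC none of the 10 was called by limma, 6 had a raw p-value under 0.05 and none was without overlap. Of all tested genes 0.0107% were called, 3024 had a raw p-value under 0.05 and 3.46% did not overlap. Between the PBMC and control groups 3 genes were called (Gadd45a, Gadd45g and Plk2), and the same 3 did not overlap, beside 19.5% and 12.7% of all genes. Without control replicate 2, 5 genes were called, and the calls over all tested genes rose from 3653 to 4628. For PBMC-hCG against control 4 were called (Gadd45a, Gadd45b, Gadd45g and Plk2) and 2 did not overlap, beside 31.8% and 18.3% of all genes.

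Marker sums differed between the groups as well. The sum of 6 stromal markers lay between 3723 and 4013 TPM in the control mice, 4458 and 5802 in the IF mice, 5033 and 5991 in the PBMC mice and 5551 and 6518 in the PBMC-hCG mice. The sum of 6 epithelial markers lay between 494 and 868 TPM in the control mice and 728 and 937 in the IF mice, and that of 6 muscle markers between 5900 and 11100 and between 5950 and 7431 TPM. In IF against control mice, 4 epithelial genes were called higher and 1 lower, 1 of the stromal genes higher and 2 lower, and 1 of the muscle genes lower. In the PBMC-hCG mice the muscle sum lay between 4806 and 6038 TPM and the epithelial sum between 864 and 1147 TPM. The sum of 9 T, B and NK cell markers lay between 32.9 and 43.5 TPM in the control mice and between 43.7 and 56.4 TPM in the PBMC-hCG mice, with the IF (31.8 to 56.1) and PBMC mice (32.1 to 47.2) across both. Sums of 7 myeloid markers (623 to 967 TPM over all mice) overlapped in all groups, while 3 of the 7 genes were called higher and 0 lower in IF than in control mice, and Ms4a1, a B cell marker, stayed below 1 TPM. The 5 red cell genes summed to 646 to 1295 TPM in the control mice, 640 to 1802 in the IF mice and 342 to 878 in the PBMC-hCG mice. The ovarian markers Cyp19a1, Fshr and Zp3 were listed at 0 in all mice, the sum of the 6 ovary and oviduct genes was 31.3 to 40.8 TPM in the control mice, 17.9 to 35.5 in the IF mice, 17.9 to 24.9 in the PBMC mice and 19.1 to 29.3 in the PBMC-hCG mice, and the 4 embryonic genes summed to at most 0.386 TPM. The sum of 4 adipose genes was 582 TPM in control replicate 2 and 134 TPM in IF replicate 5, against at most 48.1 TPM in the other mice. The part of these cell types in the levels of the 10 genes was not tested.

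The mice of a group also varied together. This variation around the group mean was not used to choose the genes, so the 45 pairs could be tested. Of these, 10 correlated within groups at an adjusted p-value under 0.05 (two-sided permutation test of Pearson's r with 100000 permutations of the mice within their groups, Benjamini-Hochberg over 45 pairs), 6 positively and 4 negatively. By Spearman's rho 9 did, and 16 had a raw p-value under 0.05. The median absolute r of the pairs was 0.374, and that of the 10 genes with all other tested genes was 0.321, so correlations of moderate size were common in these libraries. By gene, this background was 0.425 for Map2k3, 0.423 for Map2k6, 0.405 for Gadd45g and 0.403 for Plk3, all above the median of the pairs. For the other genes it lay between 0.176 (Gadd45a) and 0.329 (Dusp6).

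The closest pair was Map2k3 and Map2k6, at r = -0.85 and rho = -0.839 over 20 mice (permutation p = 4e-05, adjusted p = 0.0009), negative within each of the 4 groups. Without the 2 mice farthest from the median of Map2k3 it was -0.837. Of all tested genes, 2.89% correlated as strongly with Map2k3 and 1.57% with Map2k6. Gadd45g and Plk3 followed at r = 0.839 and rho = 0.809 (permutation p = 4e-05, adjusted p = 0.0009), positive in all 4 groups, and at 0.777 without the 2 farthest mice. Gadd45g also correlated with Map2k3 (r = 0.781), with Plk2 (0.751) and inversely with Map2k6 (-0.791). As strong a correlation with Gadd45g was found for 5.8%, 8.57% and 4.91% of tested genes. With the partner genes the shares were 9.08%, 0.342% and 5.88%, in the same order. Plk2 and Plk3 had r = 0.773, and as strong a correlation was found for 0.187% of tested genes with Plk2 and 3.98% with Plk3.

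**Figure D3:**
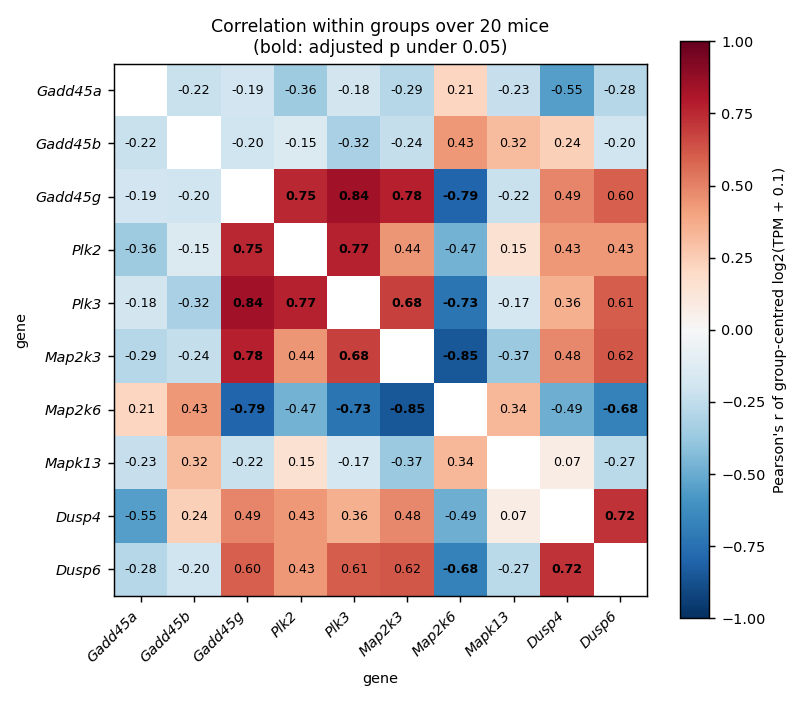
Pearson's r between the 10 genes over 20 mice, computed on log2(TPM + 0.1) after the mean of each group was subtracted; colour gives r from -1 to 1 and bold figures the pairs with an adjusted permutation p-value under 0.05. Gadd45g, Plk2, Plk3 and Map2k3 form a block of positive values with Map2k6 opposite to it, while Gadd45a, Gadd45b and Mapk13 have no bold value.

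Plk3 further correlated with Map2k3 (r = 0.684) and inversely with Map2k6 (-0.73), Dusp4 with Dusp6 (0.722), and Map2k6 inversely with Dusp6 (-0.675). For Plk3 with Map2k3, 13.3% of tested genes correlated as strongly with Plk3 and 20.1% with Map2k3. For Plk3 with Map2k6 these shares were 8.01% and 12.6%, and for Dusp4 with Dusp6 2.25% and 2.31%. For Map2k6 with Dusp6 they were 19.7% and 5.28%. Gadd45a and Gadd45b took part in no called pair, and neither did Mapk13, and the largest absolute r of Gadd45a with another member was that with Dusp4 (-0.55).

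The same mice stood at the ends of several genes. IF replicate 5, PBMC replicate 5 and PBMC-hCG replicate 1 had the highest Gadd45g and Map2k3 and the lowest Map2k6 of their groups, and they also had the lowest stromal marker sum of their groups (4458, 5033 and 5551 TPM). Their part in the pairs was examined after these values had been seen. Without the 3 mice, none of the 45 pairs passed adjustment over the remaining 17 (lowest adjusted p = 0.088 by the permutation test), and 12 had a raw p-value under 0.05. Over those 17 mice r was -0.792 for Map2k3 with Map2k6, 0.752 for Gadd45g with Plk3 and 0.712 for Plk2 with Plk3. The other called pairs had a smaller absolute r over these mice. Gadd45g had 0.623 with Plk2, 0.524 with Map2k3 and -0.592 with Map2k6. Plk3 had 0.604 with Map2k3 and -0.571 with Map2k6. Dusp6 had -0.487 with Map2k6 and 0.557 with Dusp4. Without control replicate 2, 16 pairs passed, and without that mouse and IF replicate 5, the 2 mice of highest adipose sum, 9 pairs passed. Whether the stromal share contributed was not tested.

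**Figure D4:**
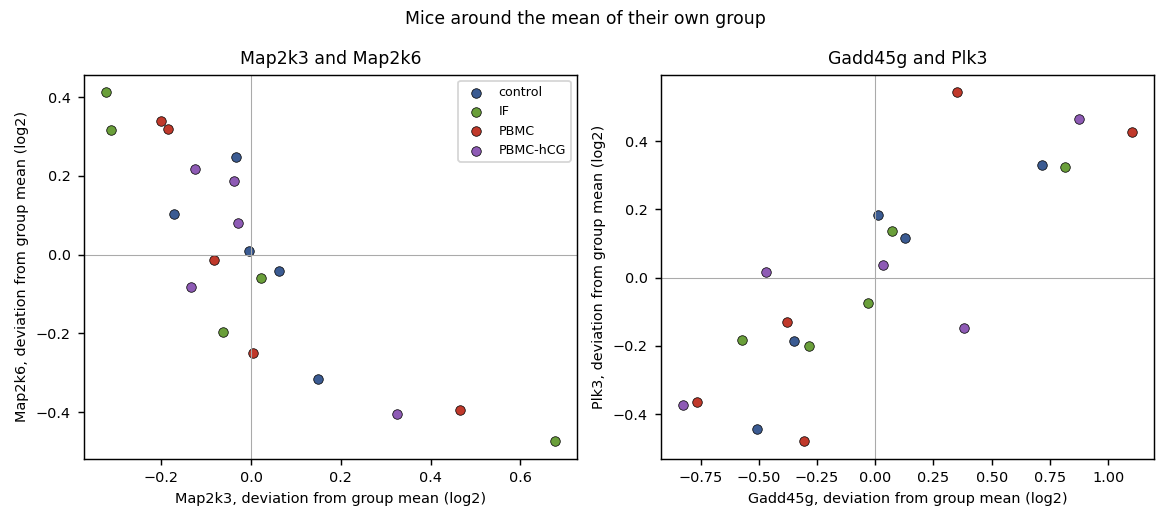
Deviation of each mouse from the mean of its own group on the log2(TPM + 0.1) scale, for Map2k3 (horizontal) against Map2k6 (vertical) on the left and Gadd45g against Plk3 on the right; each point is a mouse, coloured by group, and grey lines mark the group mean. The points fall along a descending line on the left (r = -0.85) and an ascending one on the right (r = 0.839), and the 3 points farthest to the right on the left panel are IF replicate 5, PBMC replicate 5 and PBMC-hCG replicate 1.

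Genes whose level over the 20 libraries was most like that of each of the 10 were sought among 15761 genes of at least 1 TPM, by Pearson's r of log2(TPM + 0.1). These values hold the group differences as well and are a description, and all points share the scaling of their library. The highest r was that of Gadd45g with Tlnrd1 (0.979), which averaged 38.3 TPM in the control group, 92.5 in the IF group, 68.0 in the PBMC group and 54.1 in the PBMC-hCG group. Cd164, which encodes a sialomucin (0.967), and Nppc, the gene of C-type natriuretic peptide (0.965), came next, and Nppc averaged 1.77, 30.5, 14.8 and 5.16 TPM in these groups. Among the genes most like Plk2 were Prickle2 (0.966) and Foxo1, a transcription factor of decidualizing stroma (0.957).

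Plk3 was most like the hyaluronan genes Has1 (0.940) and Ugdh (0.931), with Mfsd2a between them (0.932). Has1, a hyaluronan synthase, averaged 4.36 TPM in the control group, 20.1 in the IF group, 15.2 in the PBMC group and 3.11 in the PBMC-hCG group. Among the genes most like Map2k3 were B4galt5 (0.951) and Atf4, the transcription factor of the integrated stress response (0.946). Map2k6 was most like Lrrc31 (0.957), Svip (0.948) and Acot13 (0.935), of which Lrrc31 averaged 12.3, 6.11, 6.74 and 13 TPM.

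Dusp4 was most like Gprc5a (0.914), Hbegf, which encodes an EGF receptor ligand (0.884), and Ptgs2, the inducible cyclooxygenase (0.877). Dusp6 was most like Sertad1 (0.909), Gcc1 (0.888) and Pthlh (0.868). Gadd45a was most like Cyp26a1, a retinoic acid hydroxylase (0.912), Cd47 (0.908) and Gmpr (0.897), and Cyp26a1 averaged 117 TPM in the control group against 255, 255 and 275 TPM in the treated groups. Gadd45b was most like Il10ra (0.927), Apod (0.924) and Ddit3, a gene of the unfolded protein response (0.908). For Mapk13 the highest values were lower, with H2-Q4 (0.802), Tmem243 (0.801) and Jag1 (0.793).

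Other genes of these pathways were not used to choose the 10, but their lists were drawn up with earlier results of these data known. Their shares are therefore set beside those of all genes as a description. Of the 105 listed genes, 103 were tested. Between the IF and control groups 33 of them passed adjustment (32% of those tested, beside 21.9% of all genes), with 26 of them higher in IF mice and 7 lower. Their median log2 difference was 0.15, beside 0.02 over all tested genes. Under quantile normalization the split was 23 higher and 9 lower. Of the 33 calls, 22 held in each of the 10 fits that left out 1 mouse. Of the genes named below, Map3k9 held in 5 of these fits, Map3k14 in 7, Tet1 in 6 and Dusp5 in 2, and all 4 were lost without IF replicate 5 and without control replicate 3. All adjusted p-values below are those of limma over all 18706 genes.

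**Figure D5:**
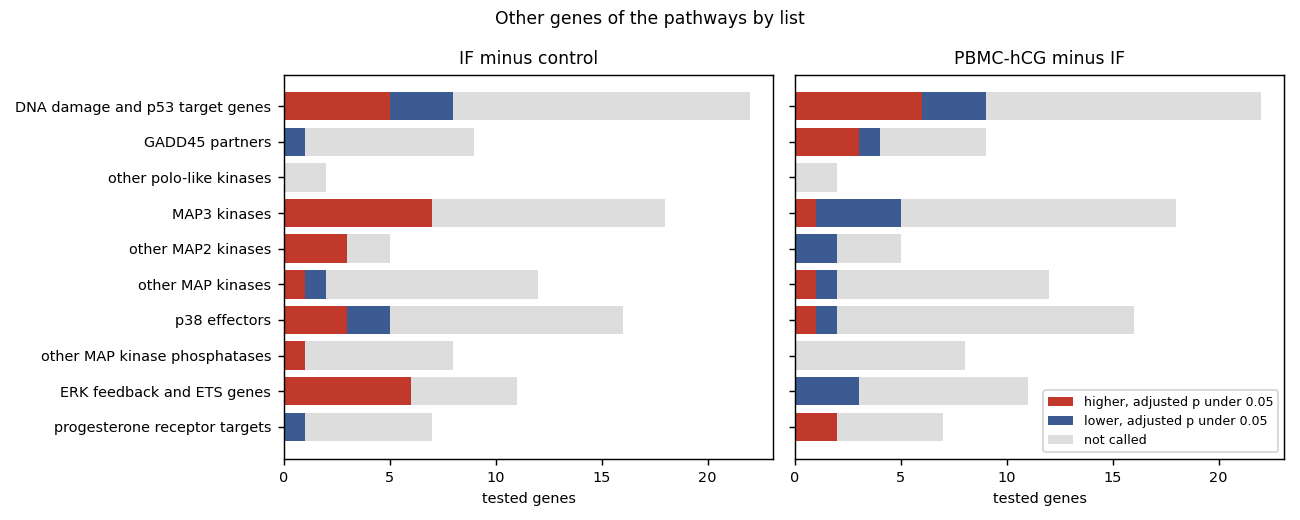
Number of tested genes per list (horizontal axis) that were higher (red), lower (blue) or not called (grey) at an adjusted p-value under 0.05, for IF minus control on the left and PBMC-hCG minus IF on the right. In IF minus control, red bars cover 7 of 18 MAP3 kinases and 6 of 11 ERK feedback and ETS genes, with no blue bar in either list; the progesterone receptor targets are outside the 103 genes.

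The MAP3 kinases, listed as a family and not only those that act on MAP2K3 and MAP2K6, rose in part. Of 18 MAP3 kinases 7 were higher in IF mice and 0 lower, with a median difference of 0.21. Map3k5, which encodes the stress kinase ASK1, rose from 10.7 ± 2.18 to 16.2 ± 3.49 TPM (log2 difference 0.59, SE 0.14, adjusted p = 0.0063), and Map3k2 rose from 9.08 to 11.8 TPM (0.38, SE 0.08, adjusted p = 0.0016) with no overlap. Map3k9 (0.47) and Map3k14 (0.36) also passed. Of 5 other MAP2 kinases 3 were higher: Map2k1, an activator of ERK (0.47, SE 0.12), and Map2k4 (0.44, SE 0.09) and Map2k7 (0.35, SE 0.07), which activate JNK. Map2k5 did not pass (0.02, SE 0.07).

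Of the 12 other MAP kinases tested 2 changed. Mapk8, which encodes JNK1, rose from 13 ± 1.50 to 16.0 ± 0.573 TPM (log2 difference 0.30, SE 0.07, adjusted p = 0.0063), and Mapk4, an atypical kinase, fell from 1.88 to 0.884 TPM (-1.04, SE 0.28, adjusted p = 0.012). Mapk3, which encodes ERK1, did not pass (0.01, SE 0.08), nor did the p38 genes Mapk11, Mapk12 and Mapk14. Of 16 p38 effectors 3 were higher and 2 lower. Zfp36l1, an RNA decay factor, rose from 265 to 401 TPM (0.58, SE 0.12, adjusted p = 0.0018) and Mef2d rose by 0.29 (SE 0.07), whereas Mef2a (-0.55, SE 0.08) and Rps6ka5, which encodes the histone kinase MSK1 (-0.92, SE 0.16, adjusted p = 0.00046), fell.

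Genes that are transcribed in answer to ERK also rose in part. Of 11 ERK feedback and ETS genes 6 were higher and 0 lower, with a median difference of 0.43. Ier3 rose from 135 ± 42.9 to 266 ± 42.6 TPM (log2 difference 1.02, SE 0.21, adjusted p = 0.0021), and Phlda1 (0.76, SE 0.15), Spry2 (0.55, SE 0.12) and Spred3 (0.50, SE 0.12) rose without overlap. Of 8 other MAP kinase phosphatases only Dusp5, which acts on ERK, passed (0.74, SE 0.24, adjusted p = 0.034). Dusp1 had a log2 difference of 0.75 (SE 0.32) and did not pass.

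DNA damage and p53 target genes, among which Gadd45a, Plk2 and Plk3 are often counted, went both ways. Of 22 genes 5 were higher and 3 lower, with a median difference of 0.00. Gdf15, a secreted stress factor, rose from 0.329 ± 0.168 to 1.40 ± 0.312 TPM (log2 difference 1.87, SE 0.40, adjusted p = 0.0026), and Btg2 (0.89, SE 0.24) and Cdkn1a, the cell cycle inhibitor p21 (0.71, SE 0.18, adjusted p = 0.0083), also rose. Eda2r fell (-0.65, SE 0.18, adjusted p = 0.016). Of 9 GADD45 partners only Tet1, a DNA demethylase, passed, and it fell from 2.13 to 1.16 TPM (-0.89, SE 0.27, adjusted p = 0.024). Map3k4, the kinase that GADD45 proteins bind, did not (-0.20, SE 0.12). Of 2 tested polo-like kinases, Plk1 and Plk4, 0 passed by limma and 0 had a raw p-value under 0.05. A list of progesterone receptor targets was kept apart and is not part of the 103 genes. Of its 7 tested genes only Hoxa10, which is also among the stromal markers, passed, and it fell from 259 ± 12.5 to 139 ± 27.0 TPM (-0.92, SE 0.14, adjusted p = 8.3e-05).

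Between the PBMC-hCG and IF groups 27 of the 103 pathway genes passed (26.2%, beside 13.6% of all genes), 12 higher and 15 lower, with a median difference of -0.05 beside 0.05 over all genes. With each library centred on its median, 10 were higher and 18 lower. None of these calls held in every fit with 1 mouse left out. The number was 0 without IF replicate 2, 4 or 5 or PBMC-hCG replicate 2, 3, 4 or 5, and 41 without IF replicate 3. Over all tested genes, at most 34 were called in the former fits and 5061 in the latter. Spry4, an inhibitor of receptor signaling, fell from 10.2 to 4.91 TPM (log2 difference -1.02, SE 0.25, adjusted p = 0.029) and Ier3 from 266 to 160 TPM (-0.76, SE 0.21, adjusted p = 0.035), both without overlap, and Etv4 also fell (-0.87, SE 0.28).

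Gdf15 (-1.54, SE 0.40) and Aen (-1.09, SE 0.24) fell and Sesn1 rose (0.84, SE 0.26) among 9 called p53 targets, of which 6 were higher and 3 lower. Of the MAP3 kinases 4 were lower, among them Map3k5 (-0.62, SE 0.14), Map3k6 (-0.52, SE 0.12) and Map3k14 (-0.42, SE 0.11), and 1 was higher. Map2k1 (-0.42, SE 0.12) and Map2k4 (-0.37, SE 0.09) were lower. Mapk6 fell (-0.49, SE 0.14), and Mapk15 rose (0.82, SE 0.23).

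Of the GADD45 partners 4 passed, with Tet1 higher (1.12, SE 0.27, adjusted p = 0.029), Map3k4 higher (0.40, SE 0.12) and Tdg, a DNA glycosylase of demethylation, lower (-0.42, SE 0.13). Rps6ka5 was higher (0.62, SE 0.16) and Mapkapk2, a p38 substrate kinase, lower (-0.31, SE 0.09). Of the other phosphatases 0 of 8 passed by limma and 3 had a raw p-value under 0.05, as did 6547 of all 18706 tested genes. Nr2f2 (0.47, SE 0.14) and Hoxa10 (0.42, SE 0.14, adjusted p = 0.047) were called in the separate list of progesterone receptor targets, both higher.

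In the other comparisons, limma called 0 of 103 pathway genes between the PBMC and IF groups. There 9 had a raw p-value under 0.05, as did 1271 of all 18706 tested genes. When PBMC-hCG was compared with PBMC limma also called 0, where 3024 of all tested genes and 33 of the pathway genes had such a p-value. Between the PBMC and control groups 31 passed (30.1%, beside 19.5% of all genes), 26 higher and 5 lower (20 without PBMC replicate 4, and 19 higher and 6 lower under quantile normalization). For PBMC-hCG against control 44 passed (42.7%, beside 31.8% of all genes), 30 higher and 14 lower, and with each library centred on its median 21 were higher and 15 lower.

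The genes next to the 10 on the chromosome were tested as well. Of the 20 nearest tested genes on either side, 4 passed between the IF and control groups, a share under the 21.9% of all tested genes: Sema4d beside Gadd45g (log2 difference 0.35, SE 0.11), Brpf3 beside Mapk13 (0.40, SE 0.07), Tnks beside Dusp4 (0.28, SE 0.09) and Kcnj12 beside Map2k3 (1.51, SE 0.45, adjusted p = 0.021). Kcnj12, a potassium channel gene, averaged 0.208 TPM over all mice. The neighbours of Plk2, Gapt (0.26, SE 0.35) and Gpbp1 (0.09, SE 0.07), did not pass, and neither did Diras2 on the other side of Gadd45g (0.12, SE 0.21). Without IF replicate 2 the count was 2. Between the PBMC-hCG and IF groups Gng12 beside Gadd45a (-0.38, SE 0.10) and Gng7 beside Gadd45b (0.60, SE 0.20) passed, again a share under that of all tested genes (13.6%), and this count was 0 without the 7 mice named above, each left out in turn, and 5 without IF replicate 3.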

How the data were processed

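TPM values per gene, deposited by the authors for 20 uterine libraries, were analysed. According to the study's methods, the authors prepared stranded mRNA libraries, trimmed reads with Trimmomatic, aligned them to mm10 with HISAT2 and assembled transcripts with StringTie; versions are not given in the sources used here. Library totals lay between 999989 and 999999 TPM, so depth is unknown and no counting error is given. From 22702 to 24097 genes per library were above 0, r between mice of a group was 0.961 to 0.992, and no columns were identical. The labels give no batch or date.

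Groups were taken from the labels. Values were transformed to log2(TPM + 0.1), which understates changes of low genes, and the 18706 genes above 0 in every library were fitted with limma 3.58.1 (R 4.3.3) in a shared model of 4 groups with a variance trend and Benjamini-Hochberg adjustment. The authors' edgeR test needs counts and was not repeated. The labels name separate mice but no litters or cages. Correlations used numpy 2.4.6 and scipy 1.17.1 in Python 3.11.15. Methods were tested on simulated data.

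The 10 genes and all lists were chosen with earlier results of these data known. Named were all 10 genes; per pathway list at most 4 genes called between IF and control and at most 3 between PBMC-hCG and IF, largest first, of mean at least 1 TPM in a group; the 3 most similar genes per gene, of which some are not reported here; and called neighbours with a log2 difference of at least 0.5. Other genes named were chosen after their values were seen. Positions and promoters are those of RefSeq (GRCm38.p6), matched by gene identifier for 45675 of 45777 genes. Alternatives were other pseudocounts, filters, scalings, fits and the study's criterion, and each mouse left out. Implantation sites, PCR and histology were not analysed here.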

Additional observations from a re-analysis of the deposited data

Results flagged for a closer look

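In 40 sets of 5 mice (10 genes in 4 groups), 5 values stood apart from the other 4 mice of their group, with a gap to the nearest mouse above 0.71 of the whole range. About 1 in 20 sets would pass this cut if values were independent and normally distributed. TPM values need not be normal and the sets share the same mice, so no excess is read from the count. Map2k3 stood apart in 3 of the 4 groups, at 105 TPM in IF replicate 5 (nearest mouse 66.9 TPM), 78.7 TPM in PBMC replicate 5 (57.1) and 56.3 TPM in PBMC-hCG replicate 1 (44.0). These mice also had the lowest Map2k6 of their groups, at 7.05, 8.41 and 11.2 TPM. In control replicate 2, Gadd45b stood apart at 19.9 TPM (nearest mouse 13.7) and Dusp4 at 4.76 TPM (2.48). That mouse had the highest adipose marker sum of the series, 582 TPM, and the highest myeloid (832 TPM) and epithelial (868 TPM) sums of the control group. The part of other tissue in these values was not tested.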

How the results depend on the processing

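The 60 differences of the 10 genes were recomputed under 1080 combinations of gene, comparison and setting. None moved by more than the spread between mice, and 16 had the other sign, none of them among the 19 differences that had been called. Most of these settings could not have moved a difference that far. Other filters and other fits of the same libraries leave a difference of group means unchanged. Leaving out a mouse shifts the mean of its group by less than that spread. Only the other pseudocounts and scalings could have moved a difference further, so the lack of movement says little about the remaining settings. The counts moved more. When genes were called by a 2-fold change together with an unadjusted p under 0.05, all tested genes called numbered 754 (IF and control), 82 (PBMC and IF), 432 (PBMC-hCG and IF), 167 (PBMC-hCG and PBMC), 625 (PBMC and control) and 887 (PBMC-hCG and control). By that criterion 2 of the 10 genes were called between IF and control, 1 between PBMC and IF, 2 between PBMC-hCG and IF and 2 between PBMC-hCG and control. Pathway genes called by it numbered 3, 1 and 4 in the first 3 comparisons and 3 and 4 against control for PBMC and PBMC-hCG, and neighbours 1 (IF and control), 1 (PBMC-hCG and IF), 0 and 0. With only the compared groups in the fit, 2473 genes, 21 pathway genes and 2 neighbours were called between IF and control, and 2 neighbours between PBMC and control. Without a filter on low values, 812 genes, 12 pathway genes and 0 neighbours were called between PBMC-hCG and IF, 1 gene between PBMC and IF and 3 neighbours between PBMC and control. With a pseudocount of 1, or a mean of at least 1 TPM, 1 gene was called between PBMC-hCG and PBMC. The causes were not tested.

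With each mouse left out in turn, the 10 genes called numbered 3 to 7 (IF and control), 3 to 5 (PBMC and control) and 0 to 7 (PBMC-hCG and IF). All tested genes called numbered 3323 to 5012, 2959 to 4628 and 0 to 5061 in the same order. They numbered 0 to 2 between PBMC and IF and 2 to 7 between PBMC-hCG and PBMC. Pathway genes numbered 20 to 35 (PBMC and control) and 0 to 41 (PBMC-hCG and IF), and neighbours 2 to 5 (IF and control), 2 to 5 (PBMC and control) and 0 to 5 (PBMC-hCG and IF). Correlated pairs numbered 9 to 16, and 0 with the 3 mice of highest Map2k3 left out, an alternative chosen after seeing the data.

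Same-numbered mice of different groups deviated together no more than others (median r -0.0097, from -0.247 to 0.457, over 0.1 in 8 of 30 pairs). For differently numbered mice the median was 0.00883, from -0.415 to 0.567, over 0.1 in 31 of 120 pairs. The numbers were not used as a pairing, and a batch shared by some mice was not tested. With a replicate block the 10 genes called numbered 7, 6, 3 and 4 for IF against control, PBMC-hCG against IF, PBMC against control and PBMC-hCG against control. All tested genes called numbered 4153, 3215, 3638 and 6071 in the same order. Between PBMC and control 3 neighbours passed. TPM hide the number of reads, so the precision of low genes such as Dusp4 is unknown.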
